A study of Mus musculus with 24 samples.

Results

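Platelets are the small, nucleus-free cells that plug wounds, and megakaryocytes are the large cells that shed them. In the mouse both are found in the spleen, which stores platelets and also makes them. The 9 genes described here are Thbs1, which encodes the matrix and granule protein thrombospondin 1, and 8 genes known from platelets: Pf4, Ppbp, Itga2b, Itgb3, Gp9, Gp1bb, Treml1 and Vwf. They were chosen by name with earlier results of these data known, 9 of 55414 genes in the deposited tables. All 9 had a count in at least 1 library.

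The series set out to compare spleens of the CT-26 tumour model with normal spleens, and this account uses its 8 RNA-seq libraries of BALB/c spleen, labelled as splenocytes. CT-26 is a colon carcinoma line from that mouse strain, and the labels say that mice aged 8 weeks received it by injection on the right side. For the 4 libraries titled control, the treatment field names CT-26 injection, and for the 4 titled CT-26 it names healthy control mice. Title and treatment thus contradict each other. The sets are called by their titles, and no value is taken as one of tumour-bearing or healthy animals. A difference is the titled CT-26 value less the titled control value. The labels give no time after injection and do not say whether each library came from its own mouse, so each p measures the spread between these libraries, which may be technical.

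The deposited values were raw counts of read pairs per gene. Totals lay between 735298 and 1970950 counts per library. Mitochondrial genes took 46.2% to 66.1% of them in titled control libraries and 32.0% to 41.1% in titled CT-26 libraries, which left few counts for rare genes. Levels are given in CPM, read pair counts scaled to a common library total with TMM, edgeR's scaling by trimmed means, and 1 count was worth between 0.601 and 1.14 CPM. All 10 lymphocyte markers of spleen were tested and detected, and each of the 10 had a lower level in the titled CT-26 set. All 10 passed as lower in edgeR's test at an adjusted p under 0.05, as did 21.6% of all genes tested. In bulk tissue, fewer cells of a type and less RNA per cell cannot be told apart.

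Megakaryocytes build the surface receptors of platelets and pack their granules before platelets are released. The integrin made of Itga2b and Itgb3 binds fibrinogen and links platelets together. The GPIb-IX-V complex, which holds Gp1bb and Gp9, catches von Willebrand factor (Vwf) at a damaged vessel wall. The alpha granules carry the chemokines Pf4 and Ppbp, von Willebrand factor, thrombospondin 1 and the receptor Treml1. Thrombospondin 1 is also made by macrophages, fibroblasts and endothelial cells, where it binds CD36 and CD47 and activates latent TGF-beta.

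Of the 9 members, 6 had a promoter in the RefSeq table of the mouse build GRCm38.p6, as 250 bases before and 50 after the annotated start. Printed here are those of the 2 neighbouring chemokine genes, whose levels ran side by side over the libraries, of Gp1bb, which was without a count in 1 set, and of Treml1, which differed though it lay under the filter. GATA factors and ETS factors are the families known to drive megakaryocyte genes, and capitals mark the GATA letters found on either strand (AGATAA, the form that ends in G, AGATAG, and the forms of both that start with T, TGATAA as well as TGATAG).
Pf4, chr5:90772185-90772484, plus strand: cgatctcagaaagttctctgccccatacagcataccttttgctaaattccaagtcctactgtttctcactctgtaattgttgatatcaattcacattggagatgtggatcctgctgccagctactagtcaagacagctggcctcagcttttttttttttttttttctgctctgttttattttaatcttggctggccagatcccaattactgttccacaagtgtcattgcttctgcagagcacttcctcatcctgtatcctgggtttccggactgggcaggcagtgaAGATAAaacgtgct
Ppbp, chr5:90768268-90768567, plus strand: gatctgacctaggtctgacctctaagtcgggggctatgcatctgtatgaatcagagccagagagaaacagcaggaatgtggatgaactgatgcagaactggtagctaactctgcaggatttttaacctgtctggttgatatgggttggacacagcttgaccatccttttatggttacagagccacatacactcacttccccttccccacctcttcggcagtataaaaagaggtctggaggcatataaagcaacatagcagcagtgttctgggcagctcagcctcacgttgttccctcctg
Gp1bb, chr16:18622354-18622653, minus strand: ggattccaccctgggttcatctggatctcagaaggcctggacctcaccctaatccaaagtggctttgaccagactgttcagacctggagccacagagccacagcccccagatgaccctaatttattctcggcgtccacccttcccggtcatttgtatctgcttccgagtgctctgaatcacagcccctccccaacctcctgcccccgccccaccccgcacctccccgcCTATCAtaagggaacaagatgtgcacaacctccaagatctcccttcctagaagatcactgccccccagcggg
Treml1, chr17:48359666-48359965, plus strand: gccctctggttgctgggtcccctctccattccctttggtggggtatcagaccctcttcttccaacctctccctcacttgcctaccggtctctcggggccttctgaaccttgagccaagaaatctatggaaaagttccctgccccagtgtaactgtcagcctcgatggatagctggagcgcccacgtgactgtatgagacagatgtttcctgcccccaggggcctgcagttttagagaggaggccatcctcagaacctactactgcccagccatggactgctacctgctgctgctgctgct

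The GATA letters stood in 2 of the 6 promoters, those of Pf4 and Gp1bb, and in 29.8% of 32851 promoters in the table. ETS letters (AGGAAG and, with another first base, CGGAAG, on either strand) stood in 4 of the 6, those of Pf4, Itga2b, Gp9 and Gp1bb, and in 46.5% of all. The letters TATAAA, either strand, stood in the Ppbp promoter alone among the 6, at 2 places, and in 13.6% of all. These matches describe the letters and are not binding sites.

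Thbs1 (ENSMUSG00000040152, chromosome 2, 117942357 to 117957614 in the GRCm39 coordinates of the tables) was almost absent from the titled control libraries. Its counts were 0, 1, 0 and 3 in titled control 1 to 4 and 10, 40, 21 and 16 in titled CT-26 1 to 4. In CPM these were 0, 0.725, 0 and 1.80 against 8.84, 29.5, 18.8 and 18.2. Every titled CT-26 library lay above every titled control library, with titled CT-26 1 the lowest of its set. The log2 fold change was 4.40 ± 0.61 (SE), with an adjusted p of 9.13e-07 from edgeR's quasi-likelihood test. The pooled counts, 4 against 87, gave a ratio of 23.8, with a 95% interval from 8.97 to 89.3 that covers counting error only. Of all 6408 genes tested, 21.2% were called higher, and in 19.7% the sets did not overlap with titled CT-26 above. Thbs1 reached the default filter on low counts through the titled CT-26 libraries alone, so a tested Thbs1 had to be higher in that set. Without titled control 4, which held 3 of the 4 control counts, the log2 fold change was 5.52.

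The chemokine Pf4 (ENSMUSG00000029373, chromosome 5, 90920294 to 90921242), also called platelet factor 4, binds heparin and is stored in alpha granules. Its counts were 15, 5, 5 and 31 in titled control 1 to 4 and 10, 46, 20 and 32 in titled CT-26 1 to 4. The levels were 16.0, 3.62, 5.37 and 18.6 CPM against 8.84, 33.9, 17.9 and 36.3 CPM. The sets overlapped: titled CT-26 1 lay under titled control 1 and 4, and titled CT-26 3 under titled control 4. The log2 fold change of 1.11 ± 0.48 (SE) did not pass, with an edgeR adjusted p of 0.0676. It passed without titled CT-26 1, at 1.40 and an edgeR adjusted p of 0.00966, and without titled control 4, at 1.60 and 0.0125. Leaving out any other single library gave 0.78 to 1.30, which did not pass (edgeR adjusted p between 0.0636 and 0.196).

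Ppbp (ENSMUSG00000029372, chromosome 5, 90916377 to 90917922) is the neighbour of Pf4 on the same strand and encodes pro-platelet basic protein, from which chemokines that draw neutrophils are cut. Its counts ranged widely in both sets, 15, 8, 12 and 88 in titled control 1 to 4 and 4, 116, 46 and 63 in titled CT-26 1 to 4. The levels were 16.0, 5.80, 12.9 and 52.9 CPM against 3.54, 85.5, 41.1 and 71.5 CPM. The lowest of all 8 libraries was titled CT-26 1, and titled control 4 stood above titled CT-26 3. The log2 fold change of 1.13 ± 0.95 (SE) did not pass (edgeR adjusted p = 0.393), and without titled CT-26 1 it did not pass at 1.53 (edgeR adjusted p = 0.122). Leaving out that library and the filter together gave Ppbp 1.58 ± 0.39 (SE), which passed, with an edgeR adjusted p of 0.00237. Without titled control 4 it was 2.18, with an edgeR adjusted p of 0.150.

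**Figure D1:**
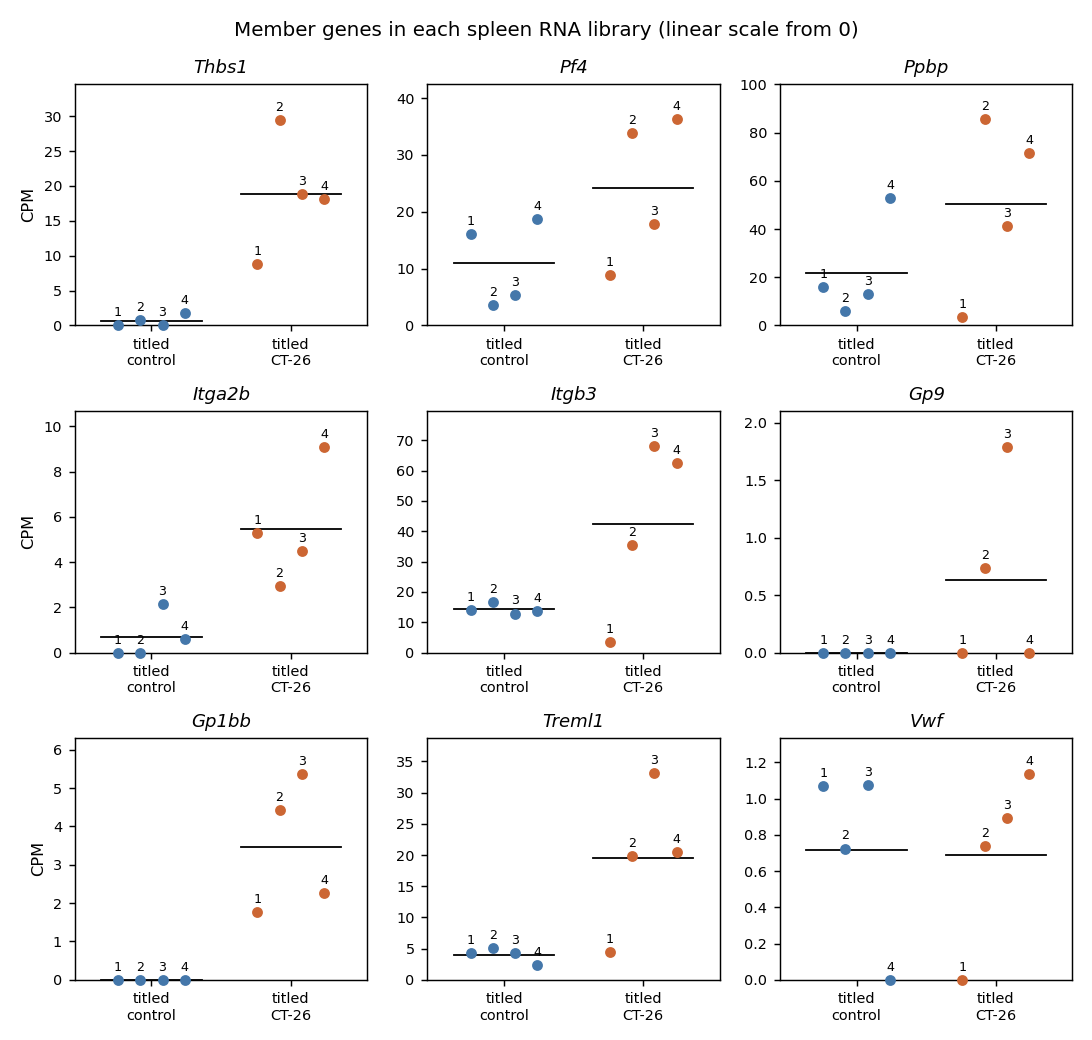
Level of each member gene in CPM (TMM-scaled, linear axis from 0) in the 8 spleen RNA libraries; each point is 1 library with its replicate number, and the bar is the mean of the 4 libraries of a set. Thbs1, Itga2b and Gp1bb lie higher in all 4 titled CT-26 libraries, while titled CT-26 1 sits within or under the range of the titled control libraries for Pf4, Ppbp, Itgb3 and Treml1.

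The integrin pair was unequal. Itgb3 (ENSMUSG00000020689, chromosome 11, 104498826 to 104561302), the beta 3 chain that platelets share with macrophages and endothelium, had 13, 23, 12 and 23 counts in titled control 1 to 4. In titled CT-26 1 to 4 it had 4, 48, 76 and 55. The titled control levels lay close together, at 13.9, 16.7, 12.9 and 13.8 CPM. The titled CT-26 levels were 3.54, 35.4, 67.9 and 62.5 CPM, so that titled CT-26 1 lay below all titled control libraries and the other 3 lay above all of them. The log2 fold change of 1.53 ± 0.65 (SE) did not pass (edgeR adjusted p = 0.0902). Without titled CT-26 1 it was 1.94 ± 0.29 (SE) and passed, with an edgeR adjusted p of 4.29e-06. Leaving out any other single library gave 1.21 to 1.62, which did not pass (edgeR adjusted p between 0.146 and 0.189).

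Itga2b (ENSMUSG00000034664, chromosome 11, 102344123 to 102360948), the alpha IIb chain found on platelets and their precursors, was rarer. It had 0, 0, 2 and 1 counts in titled control 1 to 4 and 6, 4, 5 and 8 in titled CT-26 1 to 4. Its levels were 0, 0, 2.15 and 0.601 CPM against 5.31, 2.95, 4.47 and 9.08 CPM, without overlap. Unlike Itgb3, it was not low in titled CT-26 1. The 3 pooled counts against 23 gave a ratio of 8.39, with a 95% counting interval from 2.53 to 43.6. The gene stayed under the default filter. In a fit without that filter the log2 fold change was 2.96 ± 0.90 (SE), with an edgeR adjusted p of 0.00833. Without titled CT-26 4 it was 2.66 and did not pass (edgeR adjusted p = 0.0565).

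Of the GPIb-IX-V receptor, Gp1bb (ENSMUSG00000050761, chromosome 16, 18439067 to 18441153), the beta chain of GPIb, had no count in any titled control library. In titled CT-26 1 to 4 it had 2, 6, 6 and 2 counts, or 1.77, 4.42, 5.36 and 2.27 CPM. Against a floor of 3 counts over the titled control set, its level was at least 5.83-fold higher with the 16 titled CT-26 counts taken as exact, and the 95% counting interval of the ratio began at 4.22. Without the filter, edgeR's adjusted p was 0.00225. Its counts may be incomplete: 1902 of its 2087 exon bases are shared with Sept5 on the same strand, and 867 with Gm49601. Read pairs that lie in more than 1 gene are left uncounted by the counting program unless an option is set, and the header shows none. Sept5 itself had 2 counts over the 8 libraries.

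Gp9 (ENSMUSG00000030054, chromosome 6, 87755054 to 87756750), the small subunit that the complex needs to reach the surface, had 0 counts in the titled control set. In titled CT-26 1 to 4 it had 0, 1, 2 and 0 counts, at or under the floor in both sets, so no fold is given. A count of 0 over a titled control library allows up to 3 counts, so its absence there is not shown.

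Treml1 (ENSMUSG00000023993, chromosome 17, 48666944 to 48674204) encodes TLT-1, a receptor that alpha granules bring to the platelet surface on activation. It had 4, 7, 4 and 4 counts in titled control 1 to 4 and 5, 27, 37 and 18 in titled CT-26 1 to 4. The levels were 4.27, 5.07, 4.30 and 2.41 CPM against 4.42, 19.9, 33.1 and 20.4 CPM. Titled CT-26 1 stood within the titled control range and the other 3 libraries lay above it. Treml1 missed the default filter, which asks for 4 libraries at 8.80 CPM or more of the raw total, and it had 3. In the fit without a filter the log2 fold change was 2.35 ± 0.45 (SE), with an edgeR adjusted p of 3.42e-06. The pooled ratio was 5.01, with a 95% counting interval from 3.02 to 8.72.

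Vwf (ENSMUSG00000001930, chromosome 6, 125523737 to 125663642), made by endothelium and megakaryocytes, had 3 counts in each set over an exon length of 16064 bases. The titled control counts were 1, 1, 1 and 0 and the titled CT-26 counts 0, 1, 1 and 1, and no difference was detectable at this depth. The endothelial cadherin Cdh5 was as rare, with 2, 1, 0 and 5 counts in titled control 1 to 4 and 1, 1, 0 and 1 in titled CT-26 1 to 4. Cdh5 was picked for naming after its values were seen.

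By call, 4 members passed the default filter and 1, Thbs1, was called higher, where 21.2% of all genes tested were called higher and 21.6% lower. Because the members were chosen with earlier results of these data known, the shares over all genes here are no test of them. The median log2 fold change of the 4 was 1.33, beside -0.02 over all genes tested. Without titled CT-26 1, 5 members were tested and 4 were called higher (Thbs1, Pf4, Itgb3 and Treml1), where 21.7% of all genes were, and 21.4% were lower. Thbs1 and Treml1 entered that test through titled CT-26 libraries alone, so their direction was fixed by the filter. Without the filter all 9 were tested and 6 were called higher, Itga2b and Gp1bb being the others, where 8.87% of all genes were called higher and 9.17% lower. That fit gave Itgb3 a SE of 0.33 in place of 0.65, although the same counts entered. With a filter that asks for a minimum count of 3, 6 members were tested and 4 were called higher (Thbs1, Pf4, Itga2b and Treml1), with 18.0% of all genes called higher. Thbs1 and Itga2b entered it with no titled control library over the minimum, so their direction was fixed too. With DESeq2's Wald test on all genes, 7 received an adjusted p and 5 were called higher, where 12.6% of all genes were. Thbs1 was called higher in every one of these fits. No member was called lower in any of them. Over all genes 1359 were called higher and 1381 lower, but 1936 higher and 725 lower with plain library totals in place of TMM. That scaling moved the median log2 fold change of all genes from -0.02 to 0.35, and with it Pf4 and Itgb3 were called higher, at 1.57 and 1.90.

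**Figure D2:**
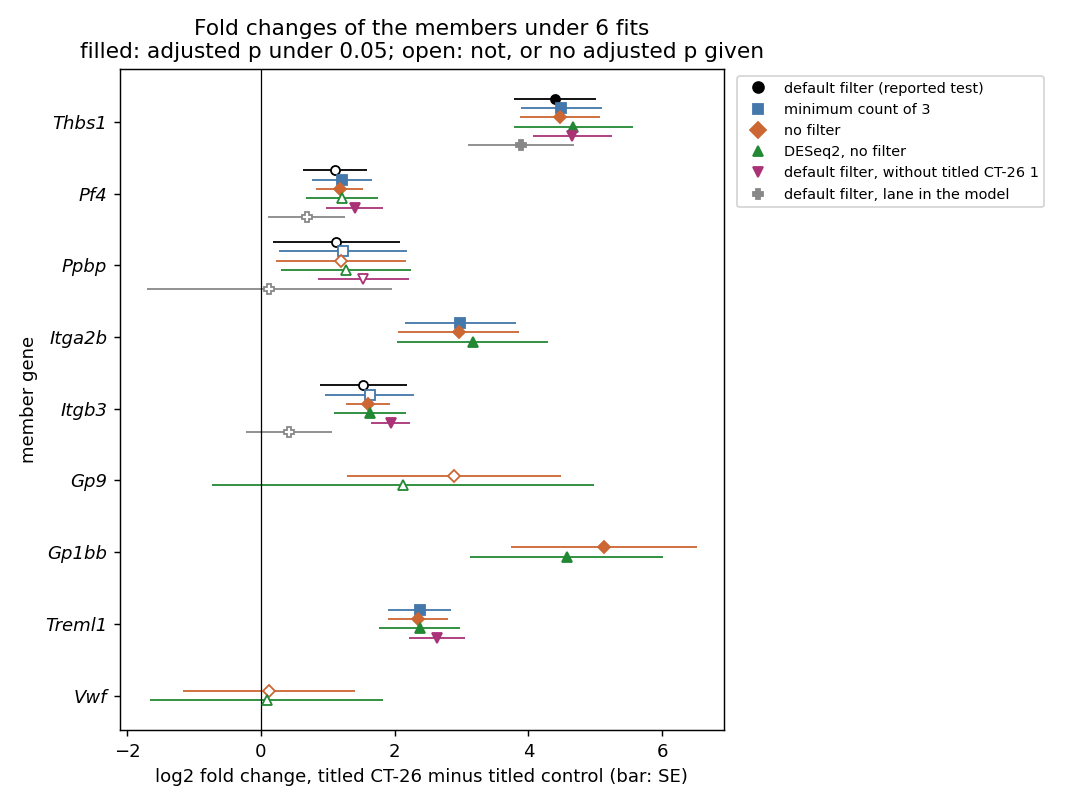
Log2 fold change of each member, from titled control to titled CT-26 libraries, with bars of 1 SE, under 6 fits; filled symbols passed at an adjusted p under 0.05, and a fit that left a gene under its filter has no symbol. Thbs1 is filled in all 6 fits and Ppbp in none. The fold changes of Thbs1, Pf4, Ppbp and Itgb3 are each smallest with the lane in the model.

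The sequencing lane, read from the file names, was not spread evenly over the sets. Lane 2 held titled control 1 and 4 and titled CT-26 1, and lane 1 held titled control 3 and titled CT-26 2 and 4. Lanes 3 and 4 held 1 library each, titled CT-26 3 and titled control 2. A fit with the lane as a factor takes nothing on the difference between the sets from these libraries. Within lane 1, the titled CT-26 means were higher: 35.1 against 5.37 CPM for Pf4, 78.5 against 12.9 for Ppbp, 48.9 against 12.9 for Itgb3 and 20.2 against 4.30 for Treml1. Within lane 2 the titled CT-26 value was lower for 3 of them, at 8.84 against 17.3 CPM for Pf4, 3.54 against 34.5 for Ppbp and 3.54 against 13.9 for Itgb3. Thbs1 was higher in both lanes, at 23.8 against 0 CPM in lane 1 and 8.84 against 0.902 CPM in lane 2, and so was Itga2b, at 6.02 against 2.15 CPM and 5.31 against 0.301 CPM. Among titled control libraries alone, the mean in lane 2 was above lane 1 for Pf4, at 17.3 against 5.37 CPM. The same held for Ppbp, at 34.5 against 12.9, and Itgb3, at 13.9 against 12.9, while Treml1 had 3.34 against 4.30. Titled CT-26 1 is the only library of its set in lane 2, so within that set the lane and that library cannot be told apart. With the lane in the model, Thbs1 changed by 3.89 ± 0.79 (SE; edgeR adjusted p = 0.000231), whereas Itgb3 had 0.42, Pf4 0.68 and Ppbp 0.13. Without the filter and with the lane in the model, Treml1 had 1.51, Itga2b 2.43 and Gp1bb 4.52, and none of these 3 passed (edgeR adjusted p between 0.122 and 0.150).

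Levels of different genes can be set beside each other once divided by exon length, as CPM per kilobase. In both sets the chemokines led, with Ppbp at 20.2 ± 19.5 and Pf4 at 15.1 ± 10.4 CPM per kilobase in the titled control set and 46.6 ± 33.5 and 33.6 ± 18.2 in the titled CT-26 set (SD, n = 4). Treml1 followed at 2.86 ± 0.809 and 13.9 ± 8.37, and Itgb3 at 2.43 ± 0.277 and 7.17 ± 5.0. Thbs1 stood at 0.104 ± 0.140 and 3.10 ± 1.39, and Itga2b at 0.126 ± 0.186 and 1.0 ± 0.479. Gp9 was at 0 in the titled control set and at 0.716 ± 0.960 in the titled CT-26 set. Gp1bb is given no place in this order, since most of its exon length is shared with Sept5 and may go uncounted. Vwf was at 0.0446 ± 0.0314 and 0.0431 ± 0.0305. In the titled CT-26 order the neighbours overlapped in range. In the titled control order, Pf4 stood clear of Treml1 and Itgb3 clear of Itga2b, and the other neighbours overlapped.

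The 4 members that passed the default filter correlated positively within the sets, and members under the filter were left out. Over the 8 libraries, with the mean of each set removed from log2 CPM, Pf4 and Ppbp had a Pearson's r of 0.88, Thbs1 and Ppbp 0.81 and Ppbp and Itgb3 0.74, while Pf4 and Itgb3 had 0.49. Thbs1 had 0.61 with Itgb3 and 0.59 with Pf4. These describe 8 libraries that share depth and lane with each other. Titled CT-26 1 was the lowest of its set for all 4 members, so 1 library may weigh heavily in each r. Thbs1 had only 0, 1, 0 and 3 counts in titled control 1 to 4. Among 2909 other genes of at least 5 in mean log2 CPM, those most like Thbs1 were Ank1, which encodes red cell ankyrin, Retreg2, Tmx1, Stradb and Ulk1, with r between 0.93 and 0.95. Those most like Pf4 were Lats2, Trip12, Cct4, Ubn1 and Cpq, with r between 0.92 and 0.94. Both lists were picked for the highest r among 2909 genes over 8 libraries, where high values can arise by chance. With the set means kept, 2 of the 5 genes remained in the list for Thbs1 and 2 in that for Pf4.

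Other genes of platelets and megakaryocytes did not move as 1 block. Of 40 listed, 15 passed the default filter: 2 were called higher, 6 lower and 7 did not pass, with a median log2 fold change of -0.33. Over all genes tested 21.2% were called higher and 21.6% lower. The rises were those of P2ry1, an ADP receptor of platelets, from 2.81 ± 1.93 to 11.8 ± 5.47 CPM (SD, n = 4 per set), and of the lipoxygenase Alox12, from 6.76 ± 3.67 to 21.1 ± 8.35 CPM. Both had no titled control library over the filter's minimum, so that, once tested, they had to be higher. The falls included genes that lymphocytes or myeloid cells also use. Ptgs1, the cyclooxygenase that aspirin blocks in platelets, fell from 40.7 ± 10.6 to 13.4 ± 5.84 CPM. Lat, an adaptor of T cell receptor and collagen receptor signals, fell from 45.0 ± 2.11 to 18.4 ± 4.87 CPM. Bin2 and the ADP receptor P2ry12, the target of clopidogrel, changed by -0.79 and -1.11 on the log2 scale, calls that ended without TMM. Without titled CT-26 1, 5 of 18 were higher and 5 lower.

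Most of the platelet-restricted genes of that list lay under the filter, and without it 8 of 39 were called higher and 4 lower, where 8.87% of all genes were higher and 9.17% lower. The following 5 were picked after their values were seen, because they were called higher, and others of the list were flat or lower in titled CT-26 without passing. Among those, also picked afterwards, Clec1b had 13 counts in the titled control set and 15 in the titled CT-26 set, Itga2 22 and 10, and Tbxas1 21 and 6 (edgeR adjusted p = 0.722, 0.380 and 0.207). Gp5, the GPV subunit of the von Willebrand factor receptor, had 3, 1, 3 and 11 counts in titled control 1 to 4 and 3, 62, 29 and 32 in titled CT-26 1 to 4. As for Treml1, titled CT-26 1 lay within the titled control range, and the log2 fold change was 2.98 ± 0.42 (SE; edgeR adjusted p = 9.08e-11). Gp1ba, the chain of GPIb that binds von Willebrand factor, had 1, 0, 1 and 4 counts against 2, 7, 8 and 7, for a log2 fold change of 2.15 (edgeR adjusted p = 0.0372). That call ended in 6 of the 8 fits that left out 1 library, all but those without titled control 4 or titled CT-26 1, and with DESeq2. The P-selectin gene Selp had 0, 0, 1 and 0 counts against 2, 6, 5 and 6. Coagulation factor V, F5, had 3, 1, 1 and 12 against 5, 19, 23 and 7, a call that ended without titled CT-26 3 (edgeR adjusted p = 0.0824). The factor XIII chain F13a1, which monocytes also make, had 0, 3, 3 and 2 against 9, 10, 13 and 10, with titled CT-26 1 among its own set. With the lane in the model, the calls of Gp1ba, Selp and F5 were lost. The beta tubulin gene Tubb1 of platelets had no count in any library.

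**Figure D3:**
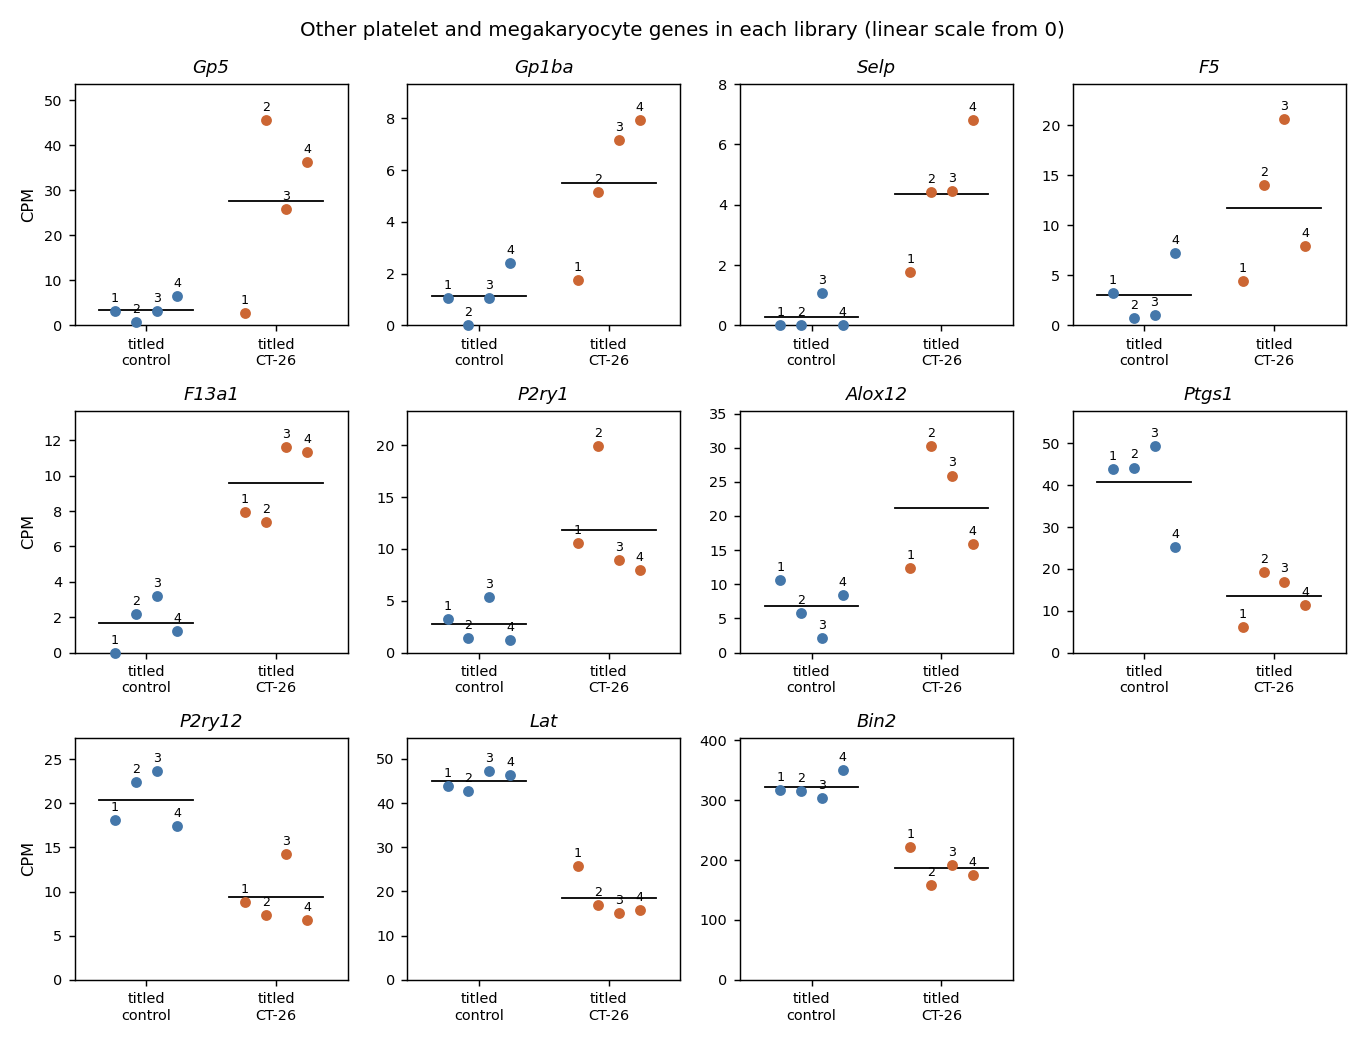
Level of 11 further platelet and megakaryocyte genes in CPM (TMM-scaled, linear axis from 0) in each library, numbered by replicate, with the mean of each set as a bar. Gp5 is high in titled CT-26 2, 3 and 4 and at the titled control level in titled CT-26 1, whereas Ptgs1, P2ry12, Lat and Bin2 are lower in all 4 titled CT-26 libraries.

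Transcription factors shared by megakaryocytes and red cell precursors were mostly higher. Of 16 listed, 12 were tested, 8 were called higher, 2 lower and 2 did not pass, with a median log2 fold change of 1.34. Over all genes tested 21.2% were called higher and 21.6% lower. Gata1, the master regulator of both lineages, rose from 38.2 ± 12.9 to 153 ± 71.9 CPM, and Nfe2, which megakaryocytes need to release platelets, from 12.5 ± 5.35 to 39.7 ± 13.8 CPM (SD, n = 4 per set). Tal1 and the red cell factor Klf1 changed by 1.62 and 1.42 on the log2 scale. The ETS factors went the other way: Fli1, which megakaryocytes and lymphocytes share, fell from 105 ± 31.7 to 36.8 ± 7.05 CPM, and Ets1 from 140 ± 20.9 to 60.5 ± 21.0 CPM. The sets did not overlap for any of these but Klf1, and in 19.7% of all genes tested they did not overlap with titled CT-26 above. Without the filter 10 of the 16 were called higher and 3 lower, where 8.87% of all genes were higher and 9.17% lower. Meis1, picked after its values were seen, was among the lower ones. It had 27 counts in the titled control set and 2 in the titled CT-26 set (edgeR adjusted p = 0.00716).

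Of the genes around thrombospondin, 13 of 28 were tested: 2 were called higher, 2 lower and 9 did not pass, with a median log2 fold change of -0.06. That share was no higher than the 21.2% and 21.6% over all genes tested. Its receptors Cd47 and Cd36 were the rises. Cd47, a broadly expressed signal against being eaten, went from 167 ± 18.8 to 548 ± 120 CPM (SD, n = 4 per set), with a log2 fold change of 1.71 ± 0.22 (SE; edgeR adjusted p = 1.98e-07). Cd36, a scavenger receptor, went from 45.0 ± 8.49 to 78.9 ± 16.9 CPM. The chaperone Calr and Skil, a brake on TGF-beta signals, changed by -1.15 and -0.84. The calls of Cd36 and Skil ended with the lane in the model, and that of Skil also without the filter, without TMM, and when titled control 3, titled CT-26 2 or titled CT-26 3 was left out. Tgfbr2 and Itga6 had -0.58 and -0.59 and did not pass (edgeR adjusted p = 0.0706 and 0.151). The sister genes were near absent: Thbs3 and Comp had no count in any library, and Thbs2 had 6 counts in the titled control set and 5 in the titled CT-26 set.

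Of 24 genes of clotting, clot lysis and granule release, 7 were tested, of which 2 were called higher, 3 lower and 2 did not pass. The shares over all genes tested were 21.2% higher and 21.6% lower, and 7 genes are few to set beside them. The granule membrane protein Cd63 and the membrane fusion gene Stx11 changed by 1.28 and 1.07 on the log2 scale. S100a10, part of a plasmin receptor, the ADP-degrading enzyme Entpd1 and the fusion partner Stxbp2 changed by -2.20, -1.19 and -0.71. Vamp8, a granule fusion gene of platelets, had -0.44 and did not pass (edgeR adjusted p = 0.154). The calls of Cd63, Stx11 and Stxbp2 ended with the lane in the model, that of Stx11 also without titled CT-26 3, and that of Stxbp2 in 6 of the 8 fits that left out 1 library, all but those without titled control 4 or titled CT-26 3. Adamts13 was among 4 genes of this list without a count.

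Counts are also given for lists of genes of other cells that a spleen holds, and for immediate early genes. They stand beside 21.2% of all genes tested called higher and 21.6% called lower. Red cell precursor genes were higher for 11 of 14 tested, with overlapping sums of 45604 to 82500 CPM in the titled control set and 67291 to 107581 CPM in the titled CT-26 set. Neutrophil genes were higher for 11 of 14, 6 of them with no titled control library over the filter's minimum, the summed level running from 558 to 1785 CPM in the titled control set and from 3983 to 9594 CPM in the titled CT-26 set. Monocyte and macrophage genes were lower for 8 of 12 tested and higher for 1, Cd14, with sums of 2094 to 2450 CPM and 1347 to 1505 CPM. Of immediate early genes 5 of 11 were higher and 2 lower, with sums of 632 to 731 CPM and 750 to 1021 CPM. Endothelial genes had 1 of 4 higher (Tie1) and 1 lower (Pecam1), with sums of 117 to 203 CPM and 88.4 to 174 CPM. Fibroblast and smooth muscle genes had 1 of 5 higher, Fn1, with sums of 67.4 to 191 CPM and 85.8 to 225 CPM. The endothelial and fibroblast sums overlapped between the sets, so a shift of either list is not shown. Tie1 had no titled control library over the filter's minimum, and the calls of Tie1 and Fn1 ended with the lane in the model. Lyve1 of the endothelial list and Lum of the fibroblast list were at 0 in all libraries, and the other lists had none at 0. The part of these cells in the levels of the 9 genes was not tested.

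**Figure D4:**
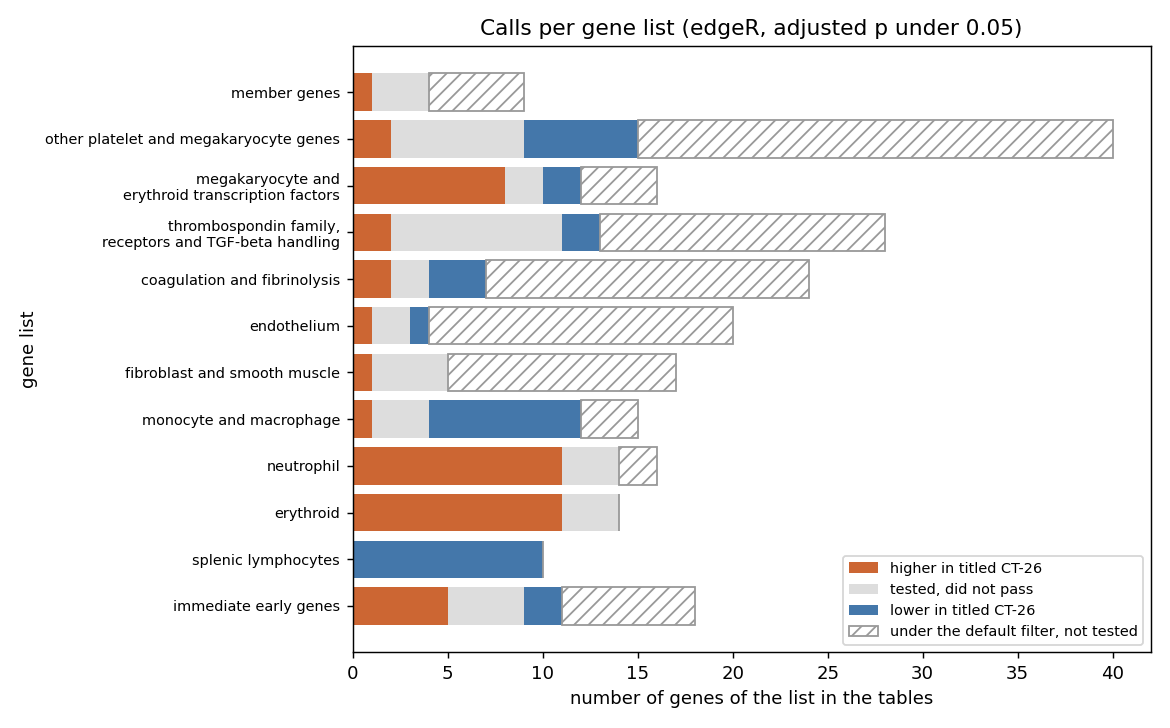
Number of genes of each list that were higher, lower or did not pass in edgeR's test, and number under the default filter on low counts. Of the 9 member genes 1 is higher and 5 are not tested, while 8 of the 12 shared transcription factors tested are higher. Of all genes tested 21.2% are higher.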

How the data were processed

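RNA-seq counts of 8 spleen libraries were used, and the 16 TCR and BCR tables, which hold no gene counts, were not. The authors deposited raw counts of read pairs per gene, which featureCounts 2.0.1 produced from the GENCODE M29 annotation with no strand option, per the file headers. Trimmomatic 0.39 and STAR 2.7.10a are listed in the submitters' processing notes. Symbols came from a table that named 52081 of 55414 genes.

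Genes were filtered with filterByExpr (minimum count 10), scaled with TMM and tested with edgeR 4.0.16 (robust quasi-likelihood, R 4.3.3), with Benjamini-Hochberg adjustment over all 6408 genes and a threshold of 0.05. DESeq2 1.42.0 was an alternative. A SE is the log2 fold change over the root of its F statistic. A counting interval is the exact binomial one for pooled counts, and it covers counting error only. The members and gene lists were chosen with earlier results of these data known. All members are named. From each pathway list the 6 genes of smallest p are named, and from lists of other cells at most 2. The 5 genes most like Thbs1 and Pf4 are also named. Others were named after their values were seen. Replicate numbers mark no shared day or animal in the labels. Some genes of the lists are counted in them but not reported here by name.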

Additional observations from a re-analysis of the deposited data

Results flagged for a closer look

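Of 66 sets of 4 libraries examined for a value far from the rest, 2 held one, where chance alone flags about 1 in 20. The level of Lat in titled CT-26 1 was 25.6 CPM, while the other 3 libraries of its set lay between 15.2 and 16.9 CPM. The level of Selp in titled control 3 was 1.07 CPM, which is 1 count, while the other 3 libraries of its set had 0.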

How the results depend on the processing

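Thbs1 was called higher under every alternative run, from 3.89 with the lane in the model to 5.52 without titled control 4. In runs that kept a filter on low counts, Thbs1 entered through titled CT-26 libraries alone, so its direction there was fixed in advance. Ppbp was called in 1 fit, without both titled CT-26 1 and the filter (1.58, edgeR adjusted p = 0.00237). Pf4 was called higher at 1.57 without TMM, 1.18 without the filter, 1.14 with DESeq2 and 1.21 with a minimum count of 3. Leaving out 1 library gave Pf4 between 0.78 and 1.60 and Itgb3 between 1.21 and 1.94. Among those fits Pf4 was called only without titled CT-26 1 or titled control 4, and Itgb3 only without titled CT-26 1. Itgb3 was called higher at 1.90 without TMM, 1.60 without the filter and 1.63 with DESeq2 on all genes. For genes under the filter, the fit without it and with the lane gave Itga2b 2.43, Gp1bb 4.52 and Treml1 1.51, none called, and Vwf -0.61, the reverse of its 0.12. Leaving out 1 library gave Vwf -0.35 to 0.49 and Itga2b 2.53 to 4.0. Without titled CT-26 4, Itga2b had 2.66 and was not called (edgeR adjusted p = 0.0565), and Vwf had -0.11, beside -0.027 without titled CT-26 3. The causes were not tested.

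With the replicate number as a block, Pf4 was called higher at 1.20 (edgeR adjusted p = 0.0396), so that 2 members were called. Over all genes that fit called 1340 higher and 1328 lower. Same-numbered libraries correlated between -0.09 and 0.08, and the numbers name no shared animal or day.

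Without TMM 1936 genes were called higher and 725 lower. The counts then were 3 members higher, 4 other platelet genes higher and 2 lower, 1 thrombospondin-related gene lower, 0 endothelial lower, 3 fibroblast higher, 2 monocyte higher and 1 immediate early gene lower. With totals free of mitochondrial and haemoglobin genes, 1 other platelet gene was higher, where 1225 of all genes were higher and 1667 lower. Without the filter 6 members, 8 other platelet, 4 thrombospondin-related, 2 endothelial, 3 fibroblast and 2 monocyte genes were higher, and 1 fibroblast gene was lower. Of all genes 8.87% were then higher and 9.17% lower. With DESeq2 2 members and 0 fibroblast genes were higher, where 1315 of all genes were higher and 1281 lower. With the lane, 1 thrombospondin-related gene was higher and 1 lower, and 0 coagulation, endothelial and fibroblast genes were higher. The calls over all genes then fell to 999 higher and 1007 lower. With a minimum count of 3, 4 members, 6 other platelet, 2 fibroblast and 2 monocyte genes were higher and 1 fibroblast gene was lower. Of all genes 18.0% were then higher. With DESeq2 on all genes, 5 members, 7 other platelet, 2 fibroblast and 3 monocyte genes were higher, where 12.6% of all genes were. Leaving out 1 library gave 1 to 4 members, 2 to 5 other platelet, 1 to 2 fibroblast, 1 to 2 monocyte and 1 to 2 coagulation genes higher, and 1 to 5 thrombospondin-related genes lower. Over all genes these fits called 1236 to 1486 higher and 1251 to 1462 lower. The minimum count of 3, DESeq2 on all genes and the pairings of no filter with another choice were chosen after seeing the data. At 735298 to 1970950 counts, genes with few counts such as Gp9 and Vwf cannot be compared.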
